A study of Rattus norvegicus with 18 samples.

Results

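The G protein and cAMP genes described here are the heterotrimeric G protein subunits, the RGS proteins, the adenylyl cyclases, the genes named as phosphodiesterases and the subunits of protein kinase A (PKA). They were chosen by symbol alone, among probe sets annotated with exactly 1 gene symbol. Of 13811 genes with such a probe set, 84 carried a matching symbol, through 126 probe sets. Testing required a ratio of 1 or more on 4 or more of the 9 arrays, which kept 98 of these probe sets and 71 of the 84 genes, against 11982 genes tested in all. The samples were cells sorted by flow cytometry from the dissociated whole brain of male rats, taken 7 days after birth. Cells carried either the A2B5 antigen, a ganglioside mark of glial progenitors and some neurons, or the O4 antigen, a sulfatide mark of late progenitors and oligodendrocytes. There were 5 A2B5+ and 4 O4+ replicates, each prepared from a litter of 10 pups, so animals were pooled within a replicate, and each was measured with 2 arrays of different probe sets, array A and array B. The labels name no strain, allele or agent, and give no treatment for either population.

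A G protein couples a receptor to the inside of the cell: the activated receptor makes the alpha subunit exchange GDP for GTP and part from the beta-gamma pair, and RGS proteins speed the hydrolysis that ends the signal. Alpha subunits of the stimulatory and inhibitory classes raise or lower the activity of adenylyl cyclases, which make cAMP. cAMP releases the catalytic subunits of PKA from their regulatory subunits, and phosphodiesterases break cyclic nucleotides down. In cultures of the oligodendrocyte lineage, raised cAMP is known to promote differentiation and myelin gene expression.

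The deposited values are linear ratios of each probe set, scaled so that the median of its 9 arrays is 1 or, for low probe sets, below 1. They show how a gene differed between arrays but not how its level compared with that of another gene. For a gene with several tested probe sets the geometric mean ratio is given. Differences are log2, O4+ minus A2B5+, ± the standard error of the limma fit (n = 5 and 4), with p-values adjusted over all 11982 genes, and "higher", "lower" or "called" mean an adjusted p under 0.05. These p-values measure the spread between sorted replicates. In bulk RNA, a larger share of cells that carry a transcript and more of it in each cell cannot be told apart.

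Some facts of the arrays bear on all values. Of the 15 tested myelin markers, 15 were higher in O4+ cells, so the O4+ label matched its defining genes, while progenitor markers split into 7 higher and 4 lower of 11. Microglia (12 of 14), endothelial (11 of 12), mast cell (9 of 10) and astrocyte (9 of 12) markers were mostly lower in O4+ cells. Dividing cell markers were lower for 12 of 12, with a median difference of -2.07. O4+ replicate 2 on array A stood apart, with the highest mean log2 ratio of control probe sets (0.49, against -0.085 to -0.0059 in the other O4+ replicates) and the highest microglia marker mean of the O4+ replicates. On array A the median log2 ratio of tested probe sets was 0.17 higher in O4+ arrays, and that of low probe sets (median ratio under 1) was 0.33 higher. On array B these shifts were 0.0024 and 0.067. Small positive differences on array A are therefore of the size of these shifts, and a call that ends when each array is centred on its median is said to do so.

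Of the 71 tested members, 20 were higher in O4+ cells (28.2%) and 16 lower (22.5%), beside 28.8% and 17.8% of all genes, so 36 were called in either direction, beside 46.5% of all genes. The members as a set thus lay near the background in the upward direction. With arrays centred, 13 were higher and 16 lower, against 18.7% and 20.4% of all genes. The median difference was 0.07 over the members and 0.14 over all genes, and differences ran from -2.29 (Pde2a) to 4.42 (Gng8). All O4+ arrays lay above all A2B5+ arrays for 20 members and below them for 11, 31 in all, beside 27.6%, 13.5% and 41.1% of all genes. Those 11 members passed the filter through A2B5+ arrays only, so they had to be lower in O4+ cells and their count supports nothing. The 20 had gene ratios above 1 on all 4 O4+ arrays, and 4 arrays are enough for the filter. Their count is thus no support either. The same holds for the separation of single genes given below. Without O4+ replicate 2, 17 members were higher and 17 lower, beside 25% and 17.5% of all genes.

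**Figure D1:**
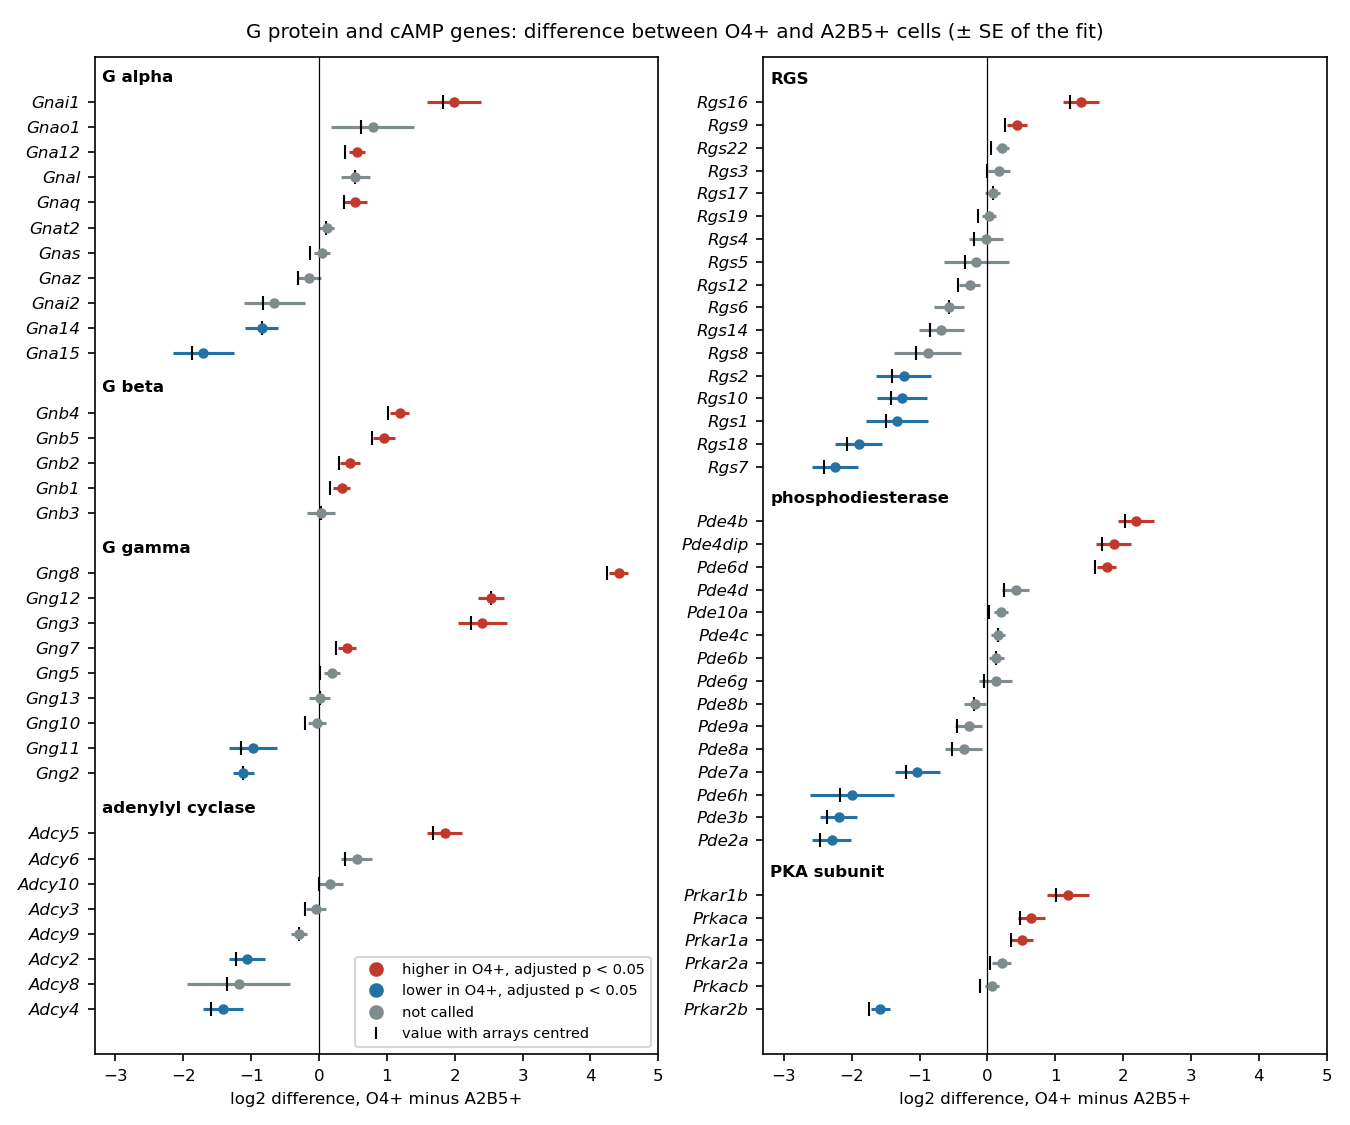
Log2 difference, O4+ minus A2B5+, of the 71 tested genes by role, coloured by call, with bars for the standard error; black ticks give the value with each array centred on its median. Gng8 at 4.42 lies far to the right of all others, and most G beta values lie right of 0 while most RGS values lie left of it.

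The promoters of the leading changes with an entry in the RefSeq promoter table are shown first, since CREB, the transcription factor that PKA phosphorylates, binds the cAMP response element (CRE) in promoters of its targets. The lines give the 250 bases before the gene's start, 5′ to 3′ on the gene's strand, for the 3 largest rises (Gng12, Gng3, Pde4b) and the 2 largest falls (Pde2a, Rgs7) found there. Capitals mark the GC box (GGGCGG or its complement, a site type bound by Sp1), the CRE (TGACGTCA) and its core (TGACG or its complement), both strands searched, each CRE holding cores.
Gng12, GRCr8 chr4:97365711-97365960, plus strand: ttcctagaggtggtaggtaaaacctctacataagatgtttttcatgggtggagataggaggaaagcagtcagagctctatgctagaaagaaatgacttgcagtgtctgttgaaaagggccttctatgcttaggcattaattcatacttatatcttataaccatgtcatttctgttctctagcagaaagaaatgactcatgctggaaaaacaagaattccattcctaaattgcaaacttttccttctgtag
Gng3, GRCr8 chr1:215162719-215162968, minus strand: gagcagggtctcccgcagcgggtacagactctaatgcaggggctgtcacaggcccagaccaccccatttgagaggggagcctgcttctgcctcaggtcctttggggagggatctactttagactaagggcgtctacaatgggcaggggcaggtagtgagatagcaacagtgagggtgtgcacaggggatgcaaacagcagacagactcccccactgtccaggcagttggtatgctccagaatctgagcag
Pde4b, GRCr8 chr5:122028706-122028955, plus strand: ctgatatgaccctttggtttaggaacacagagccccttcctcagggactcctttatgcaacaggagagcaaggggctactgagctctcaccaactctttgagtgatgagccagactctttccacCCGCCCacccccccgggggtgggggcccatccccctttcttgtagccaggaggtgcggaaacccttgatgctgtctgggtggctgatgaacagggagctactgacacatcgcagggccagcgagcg
Pde2a, GRCr8 chr1:165235373-165235622, plus strand: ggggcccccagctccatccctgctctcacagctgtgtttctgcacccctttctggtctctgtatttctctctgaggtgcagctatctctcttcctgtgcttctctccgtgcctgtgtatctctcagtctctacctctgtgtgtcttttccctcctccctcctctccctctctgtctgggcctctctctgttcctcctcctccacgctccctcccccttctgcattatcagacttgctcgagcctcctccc
Rgs7, GRCr8 chr13:89941051-89941300, minus strand: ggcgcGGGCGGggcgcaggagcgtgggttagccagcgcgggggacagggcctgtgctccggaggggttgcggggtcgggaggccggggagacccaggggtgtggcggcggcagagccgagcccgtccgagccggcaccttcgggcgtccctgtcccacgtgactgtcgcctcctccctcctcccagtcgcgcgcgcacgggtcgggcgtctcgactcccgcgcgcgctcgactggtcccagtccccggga
Only the first listed of 2 starts is shown for Pde4b and for Pde2a. The Pde4b and Rgs7 windows each held 1 GC box, and no CRE or core stood in the 5 windows shown. Over the 66 entries found for 55 of the 71 members, the full CRE was in 1 (that of Gnao1), against 1.59% of all 33469 promoters in the table. The core was in 4 of 21 entries of higher members, 2 of 15 of lower and 9 of 30 of uncalled ones, against 18.2% of all. The GC box was in 14 of 21, 6 of 15 and 14 of 30, against 30.5% of all. GC content of the windows shown ran from 37.6% (Gng12) to 77.2% (Rgs7). A match is a run of letters and not a bound site, and its absence says only that the letters are not in the window.

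Among the G alpha subunits, 3 of 11 tested were higher and 2 lower, beside 28.8% and 17.8% of all genes (2 and 2 with arrays centred). Gnai1, an inhibitory alpha subunit that lowers adenylyl cyclase activity, had ratios of 1, 1, 0.715, 0.85 and 0.89 on A2B5+ replicates 1 to 5 and 5.48, 2.07, 1.81 and 7.53 on O4+ replicates 1 to 4. The groups did not overlap, and the O4+ replicates fell into a high pair (1 and 4) and a lower pair. Its difference was 2.00 ± 0.40 (3.99-fold, adjusted p = 0.0029). Gna12 had A2B5+ ratios of 0.802, 1, 0.81, 0.987 and 0.901 and O4+ ratios of 1.40, 1.34, 1.16 and 1.39, a difference of 0.56 ± 0.12 (adjusted p = 0.0049). Gnaq, which activates phospholipase C beta, had A2B5+ ratios of 0.58, 0.835, 0.896, 0.991 and 1 and O4+ ratios of 1.08, 1.36, 1.36 and 1.13 (0.54 ± 0.18, adjusted p = 0.032). Neither gene's groups overlapped. The Gnaq call ended with arrays centred (adjusted p = 0.095) and without A2B5+ replicate 2 or O4+ replicate 2 or 3 (0.061 to 0.082), and that of Gna12 ended only when arrays were centred on low probe sets (0.17), a scaling added after seeing the data.

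The lower alpha subunits were both of the Gq class. Gna15, found mainly in blood cells, had ratios of 0.985, 2.11, 1, 1.57 and 3.12 on A2B5+ replicates 1 to 5 and 0.439, 1.19, 0.305 and 0.357 on O4+ replicates 1 to 4. Only O4+ replicate 2 reached into the A2B5+ range, and the difference was -1.70 ± 0.45 (adjusted p = 0.013). Gna14 had ratios of 1.21, 2.15, 1, 1.93 and 1.68 in A2B5+ and 0.924, 0.999, 0.634 and 0.91 in O4+ replicates on array B (-0.84 ± 0.24, adjusted p = 0.018). Its call ended without O4+ replicate 3 (0.055) and with no filter, where a low probe set of the gene entered its mean and the difference was -0.35 (adjusted p = 0.069).

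Gnas, the stimulatory alpha subunit, did not pass the test, with a difference of 0.04 ± 0.12 as the mean of 3 probe sets. Its olfactory and striatal relative Gnal differed by 0.54 ± 0.21 (adjusted p = 0.060). Gnao1, the abundant alpha subunit of neurons, had ratios of 1.56 to 1.78 on O4+ replicates 1, 3 and 4 but 0.306 on replicate 2, and its difference of 0.80 ± 0.61 (adjusted p = 0.31) was called without that replicate (1.41, adjusted p = 0.040). Gnai2, an inhibitory subunit abundant in immune cells, differed by -0.66 ± 0.45 and was likewise called without O4+ replicate 2, where its ratio was 2.22 (-1.07, adjusted p = 0.048). Gnaz (-0.14 ± 0.17) and the cone transducin Gnat2 (0.11 ± 0.11) were not called. The ratios of Gna11 and of the transducin-type subunits Gnat1 and Gnat3 lay below the filter, Gnat3 just outside it with a ratio of at least 1 on 3 arrays, while Pde6h lay just inside with 4. Probe sets shared by Gnai1 and Gnai3 were not used.

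Of the 5 G beta subunits tested, 4 were higher and 2 with arrays centred, beside 28.8% and 18.7% of all genes. Gnb4 had A2B5+ ratios of 0.802, 0.81, 0.736, 1 and 0.814 and O4+ ratios of 1.60, 1.72, 2.19 and 2.12, with no overlap. Its difference was 1.19 ± 0.14 (2.28-fold, adjusted p = 1.4e-04). Gnb5, an atypical beta subunit that partners the Rgs6, Rgs7 and Rgs9 proteins in place of a gamma subunit, had A2B5+ ratios of 0.898, 0.65, 1, 0.877 and 0.828 and O4+ ratios of 1.29, 1.77, 1.76 and 1.78. All O4+ values again lay above all A2B5+ values (0.96 ± 0.16, adjusted p = 0.0011). The common beta subunits Gnb2 (0.46 ± 0.15, adjusted p = 0.027) and Gnb1 (0.33 ± 0.12, adjusted p = 0.045) were higher only without centring (0.15 and 0.34 with it). Gnb2 ratios overlapped, with 1.18, 0.819, 0.806, 0.901 and 0.89 in A2B5+ and 1.41, 1.11, 1.15 and 1.37 in O4+ replicates. Without any 1 of the 9 replicates the Gnb1 call was lost (adjusted p = 0.052 to 0.094), and that of Gnb2 was lost without A2B5+ replicate 2, 3 or 4 or O4+ replicate 1 or 4 (0.050 to 0.077). The retinal and taste beta subunit Gnb3 differed by 0.03 ± 0.20.

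The G gamma subunits held the largest rises of all members. Of 9 tested, 4 were higher and 2 lower, beside 28.8% and 17.8% of all genes, and 3 and 2 with arrays centred. Gng8, a gamma subunit first known from olfactory and vomeronasal neurons, had ratios of 0.795, 0.916, 0.853, 0.956 and 1 on A2B5+ replicates 1 to 5 and 18.1, 24.3, 16.8 and 18.6 on O4+ replicates 1 to 4. No A2B5+ replicate came near any O4+ replicate. The difference was 4.42 ± 0.14 (21.4-fold, adjusted p = 5.0e-08). After the median pattern of low probe sets was subtracted, its A2B5+ log2 ratios had an SD of only 0.084, so they varied between arrays much as low probe sets did, and the size of the fold is uncertain.

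Gng12, a gamma subunit of many cell types including glia, had geometric mean ratios over 2 probe sets of 0.982, 0.835, 0.579, 0.588 and 0.576 in A2B5+ and 3.93, 4.35, 4.52 and 3.37 in O4+ replicates. Every O4+ value was over 3 times every A2B5+ value, and the difference was 2.53 ± 0.19 (5.79-fold, adjusted p = 9.2e-06). Gng3, known as a gamma subunit of neurons, had A2B5+ ratios of 1, 0.4, 0.708, 0.493 and 0.24 and O4+ ratios of 2.44, 2.23, 2.69 and 3.58 (2.41 ± 0.36, 5.30-fold, adjusted p = 5.8e-04). Of 15 neuron markers, 8 were lower and 4 higher (8 and 2 with arrays centred), and their part in the difference was not tested. Gng7, the striatal partner of Gnal, had ratios of 0.744 to 1 and 1.00 to 1.28 (0.42 ± 0.13, adjusted p = 0.025). Its log2 ratios on all 9 arrays followed the low probe sets to within an SD of 0.090, and its call ended with arrays centred (adjusted p = 0.093). It also ended without A2B5+ replicate 2 or 3 or O4+ replicate 2, 3 or 4 (0.050 to 0.056).

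Other members of the gamma family, Gng2 and Gng11, were lower in O4+ cells. Gng2, widespread in the brain, had ratios of 1.26, 1.59, 1.64, 1.19 and 1.27 in A2B5+ and 0.512, 0.669, 0.767 and 0.621 in O4+ replicates over 2 probe sets on array B. The groups lay well apart (-1.12 ± 0.16, 2.17-fold, adjusted p = 4.0e-04). Gng2 passed the filter through A2B5+ arrays only, so this separation supports nothing. Gng11, known from endothelial cells among others, had A2B5+ ratios of 1.14, 1.28, 0.98, 1.27 and 1.42 and O4+ ratios of 0.778, 1, 0.245 and 0.744 (-0.98 ± 0.36, adjusted p = 0.046). The low value of O4+ replicate 3 set much of that size: without it the difference was -0.54 (adjusted p = 0.033), and leaving out any other replicate but O4+ replicate 2 ended the call (0.055 to 0.085). Its array B probe set differed by -0.06 ± 0.12 and was not called, and the mean over both array types was -0.52 (adjusted p = 0.076). Gng5 (0.19 ± 0.11), Gng10 (-0.03 ± 0.13) and Gng13 (0.01 ± 0.15) were not called either. Of the Gng5 probe sets, 1 on array A was higher (0.42 ± 0.14, adjusted p = 0.029). The others, on array A (-0.04 ± 0.14) and array B (0.09 ± 0.13), were not called.

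**Figure D2:**
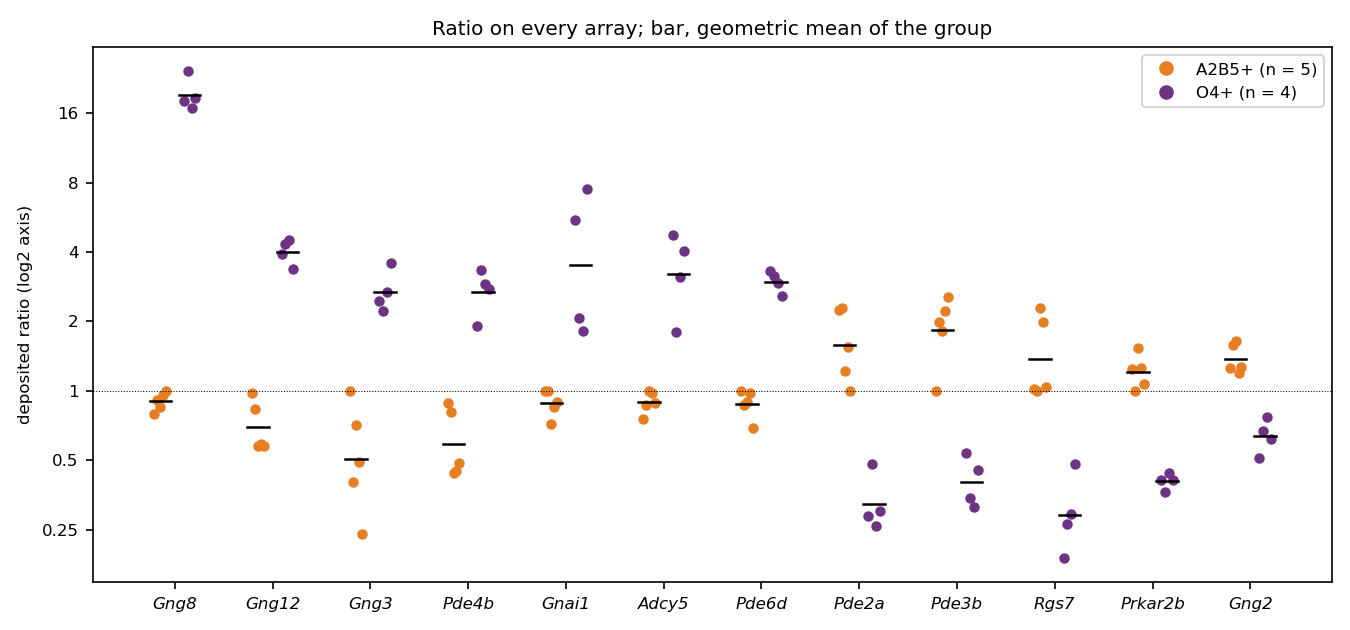
Deposited ratio (log2 axis) of 12 members on each A2B5+ (orange) and O4+ (purple) replicate, as the geometric mean of a gene's probe sets; bars are group geometric means. The groups do not overlap for any of the 12, and the O4+ ratios of Gng8 (16.8 to 24.3) exceed all others. Arrays of 1 population alone can meet the filter, so the separation supports nothing.

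Among RGS proteins, which end G protein signals, 5 of 17 tested were lower and 2 higher, beside 17.8% and 28.8% of all genes. Their median difference was -0.26, against 0.14 over all genes. The largest fall was of Rgs7, a neuronal RGS protein that works with Gnb5. Rgs7 had ratios of 1.02, 1, 2.28, 1.98 and 1.04 in A2B5+ and 0.188, 0.264, 0.291 and 0.482 in O4+ replicates. A2B5+ replicates 3 and 4 were high, the replicates that also had the highest neuron marker means (1.11 and 0.93, against -0.27 to 0.37 in the other A2B5+ replicates and -0.47 to -0.18 in O4+). Astrocyte marker means were highest in A2B5+ replicates 3 and 4 too (1.00 and 0.80, against -0.0021 to 0.59 in the other A2B5+ replicates). In O4+ replicates they were -1.14 to -0.47. The difference of Rgs7 was -2.24 ± 0.34 (4.73-fold, adjusted p = 5.6e-04), and the part of neurons or astrocytes in it was not tested. Gnb5 and its partner Rgs7 thus changed in opposite directions. Of the other partners of Gnb5, Rgs9 was higher (0.43 ± 0.15, adjusted p = 0.037) and Rgs6 was not called (-0.57 ± 0.23, adjusted p = 0.064).

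Rgs9, a striatal and retinal RGS protein, had A2B5+ ratios of 0.866, 0.729, 0.898, 0.981 and 1 and O4+ ratios of 1.11, 1.53, 1.11 and 1.10. In A2B5+ log2 ratios Rgs9 followed the low probe sets to within an SD of 0.097. Its call ended with arrays centred (adjusted p = 0.13) and without A2B5+ replicate 1, 2 or 3 or O4+ replicate 1, 2 or 3 (0.054 to 0.080), and its array B probe set differed by only 0.09 ± 0.12. The mean over both array types was 0.26 (adjusted p = 0.072). Rgs16, an inducible RGS protein, had ratios of 0.557, 0.443, 0.664, 0.587 and 1 in A2B5+ and 1.90, 1.02, 1.82 and 2.01 in O4+ replicates. The groups did not overlap, but O4+ replicate 2 lay close to A2B5+ replicate 5 (1.38 ± 0.27, 2.61-fold, adjusted p = 0.0024).

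The other lower RGS genes are known from blood and immune cells or are abundant in microglia. Rgs18, of platelets and other blood cells, had ratios of 1.57, 1.51, 1.03, 1 and 2.90 in A2B5+ and 0.569, 0.356, 0.24 and 0.511 in O4+ replicates (-1.90 ± 0.35, adjusted p = 0.0019). Rgs1, of activated lymphocytes and microglia, had 0.985, 2.50, 1, 1.39 and 2.41 and then 0.946, 1.21, 0.347 and 0.344 (-1.33 ± 0.46, adjusted p = 0.038). Rgs10, of microglia, differed by -1.26 ± 0.37 (adjusted p = 0.021) and Rgs2, which acts on Gq, by -1.23 ± 0.40 (adjusted p = 0.031). For Rgs1, Rgs2, Rgs10 and Gna15, O4+ replicate 2 was the highest O4+ replicate and overlapped the A2B5+ range.

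Markers of microglia and of mast cells moved with Rgs1, Rgs2, Rgs10 and Gna15. The mean log2 ratio of 14 microglia markers was -0.05, 0.84, 0.11, 0.55 and 0.79 in A2B5+ replicates 1 to 5 and -0.70, 0.10, -1.38 and -1.27 in O4+ replicates 1 to 4. It was highest in A2B5+ replicates 2 and 5, where Rgs1, Rgs2 and Gna15 were highest too (Rgs10 was highest in 5 and 4), and lowest in O4+ replicates 3 and 4, where Rgs1, Rgs2, Rgs10 and Gna15 were lowest. The mean of 10 mast cell markers was 0.69, 1.81, -0.06, 0.87 and 1.97 in A2B5+ replicates 1 to 5, also highest in 2 and 5, and -1.67 to -1.07 in O4+ replicates. The mean of 11 progenitor markers was lowest in A2B5+ replicates 2 and 5 (-0.81 and -1.59, against -0.17 to 0.44 in the other A2B5+ replicates). Rgs18 did not share the microglia pattern, with one of its lowest ratios in O4+ replicate 2. The part of microglia, mast cells or progenitors in these differences was not tested. Leaving out a single replicate ended the call of Rgs1 (A2B5+ replicate 2, 4 or 5 or O4+ replicate 3 or 4, adjusted p = 0.057 to 0.11), Rgs2 (A2B5+ replicate 2 or 5 or O4+ replicate 1, 3 or 4, 0.054 to 0.088) and Rgs10 (O4+ replicate 3 or 4, 0.059 and 0.061). With both A2B5+ replicates 2 and 5 left out, 8 members were lower in place of 16, beside 14.8% of all genes. The 14 calls lost there (adjusted p = 0.052 to 0.18) were those of Gna14, Gna15, Gnaq, Gnb1, Gnb2, Gng11, Pde6h, Pde7a, Prkar1a, Prkar1b, Rgs1, Rgs2, Rgs9 and Rgs10.

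**Figure D3:**
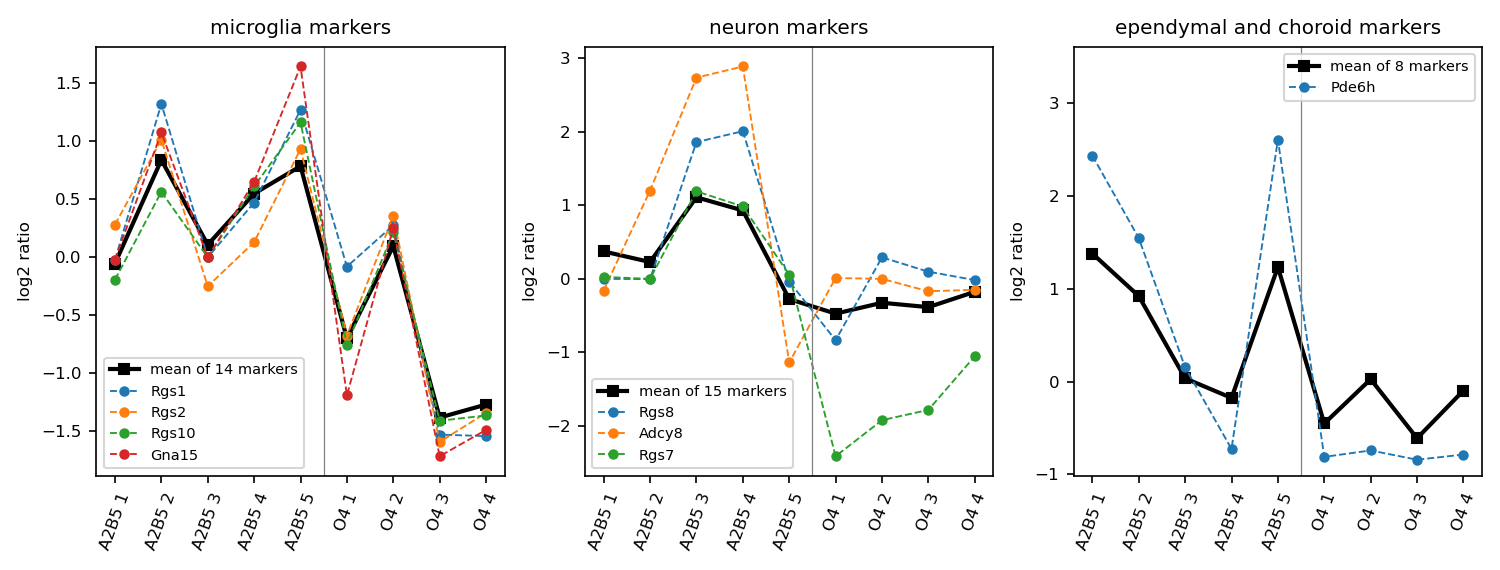
Log2 ratio on each replicate of members (dashed) beside the mean of a marker list (black): Rgs1, Rgs2, Rgs10 and Gna15 with microglia markers, Rgs8, Adcy8 and Rgs7 with neuron markers, and Pde6h with ependymal and choroid plexus markers. Microglia markers, Rgs1, Rgs2 and Gna15 peak in A2B5+ replicates 2 and 5 (Rgs10 in 5 and 4), the neuron panel in 3 and 4, and the Pde6h panel in 1 and 5. Astrocyte markers, not drawn, also peak in A2B5+ replicates 3 and 4.

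The remaining RGS genes were not called. Rgs8, known from Purkinje cells and other neurons, had ratios of 3.63 and 4.02 on A2B5+ replicates 3 and 4 and of 0.561 to 1.23 on the other 7 arrays (-0.88 ± 0.50, adjusted p = 0.17). Rgs5, a marker of pericytes, differed by -0.16 ± 0.48, and the mural cell markers had 3 higher and 1 lower of 12. Rgs14 (-0.68 ± 0.33), Rgs12 (-0.26 ± 0.16), Rgs4 (-0.02 ± 0.25), Rgs19 (0.02 ± 0.10), Rgs17 (0.08 ± 0.11), Rgs3 (0.17 ± 0.17) and Rgs22 (0.22 ± 0.10) completed the family. Rgs7bp, which anchors Rgs7 and its relatives at the membrane and is no RGS protein itself, lay below the filter.

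Of 8 tested adenylyl cyclases, 1 was higher and 2 were lower, also with arrays centred, beside 28.8% and 17.8% of all genes without centring. Adcy5, a cyclase inhibited by inhibitory alpha subunits and abundant in striatum and heart, had ratios of 0.754, 0.865, 1, 0.982 and 0.883 in A2B5+ and 4.74, 1.80, 3.11 and 4.04 in O4+ replicates. The groups did not overlap, with O4+ replicate 2 the lowest of its group. Its difference was 1.85 ± 0.25 (3.61-fold, adjusted p = 3.3e-04). Another Adcy5 probe set lay below the filter, with ratios of 0.446 to 0.553 in A2B5+ and 0.588 to 0.848 in O4+ replicates. With no filter it entered the mean, and the difference was 1.13, still called. Adcy5 and the inhibitory subunit Gnai1 were thus both higher in O4+ cells, and both were lower in O4+ replicate 2 than in replicates 1 and 4. Of 10 striatal neuron markers, 5 were lower and 2 higher, and their part in the difference was not tested.

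Adcy2 and Adcy4 belong to the cyclases that beta-gamma subunits can stimulate, and both were lower in O4+ cells. Adcy2 had ratios of 1.15, 1.16, 2.10, 2.14 and 1 in A2B5+ and 0.499, 0.771, 0.731 and 0.799 in O4+ replicates (-1.06 ± 0.27, 2.08-fold, adjusted p = 0.010). Adcy4, prominent in endothelial cells, had 1, 2.04, 1.09, 1.46 and 2.45 and then 0.601, 0.76, 0.407 and 0.558 (-1.42 ± 0.29, 2.67-fold, adjusted p = 0.0034). The groups did not overlap for either gene, but both passed the filter through A2B5+ arrays only, so that separation supports nothing. Endothelial markers were lower too, with list means of 0.15 to 0.70 in A2B5+ and -2.13 to -1.08 in O4+ replicates. Adcy4 was highest in A2B5+ replicates 5 and 2. The endothelial mean was lowest of the A2B5+ group in replicate 5, and the microglia and mast cell means were highest in 2 and 5. The part of these cell types in the difference was not tested.

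Adcy8, a calcium-stimulated cyclase of neurons, had ratios of 6.66 and 7.40 on A2B5+ replicates 3 and 4, 2.30 on replicate 2 and 0.455 to 1.01 on the other 6 arrays. With such spread among A2B5+ replicates its difference of -1.18 ± 0.76 was not called (adjusted p = 0.22). Adcy6, the closest relative of Adcy5, differed by 0.55 ± 0.23 (adjusted p = 0.071). Adcy9 (-0.29 ± 0.12), Adcy3 (-0.04 ± 0.15) and the soluble cyclase Adcy10 (0.17 ± 0.18) were not called.

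Of 15 tested genes named as phosphodiesterases, 3 rose and 4 fell, beside 28.8% and 17.8% of all genes. Centring left both counts of phosphodiesterase genes as they were. Only 1 of the 3 higher genes, Pde4b, encodes an enzyme that breaks down a cyclic nucleotide. Pde4b, a cAMP-specific phosphodiesterase, had ratios of 0.881, 0.806, 0.439, 0.451 and 0.486 in A2B5+ and 1.90, 3.35, 2.89 and 2.77 in O4+ replicates over 2 probe sets. Every O4+ value was over 2 times every A2B5+ value (2.19 ± 0.26, 4.57-fold, adjusted p = 1.4e-04). The other 2 are named for a phosphodiesterase they bind. Pde4dip, or myomegalin, a scaffold of the centrosome and Golgi, had 0.374, 0.453, 0.823, 0.783 and 0.387 and then 2.00, 1.66, 1.93 and 2.16 (1.86 ± 0.26, adjusted p = 3.7e-04). Pde6d, a carrier of prenylated proteins, had 1, 0.863, 0.892, 0.981 and 0.689 and then 3.29, 3.13, 2.95 and 2.56 (1.76 ± 0.14, adjusted p = 1.3e-05). The groups were apart for both.

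The lower phosphodiesterases included 3 catalytic enzymes. Pde2a, which cGMP stimulates, had ratios of 2.25, 2.30, 1.21, 1.55 and 1 in A2B5+ and 0.285, 0.48, 0.258 and 0.302 in O4+ replicates (-2.29 ± 0.28, 4.90-fold, adjusted p = 1.8e-04). Pde3b, which cGMP inhibits, had 1, 1.99, 1.81, 2.23 and 2.54 and then 0.535, 0.341, 0.314 and 0.451 (-2.19 ± 0.27, 4.55-fold, adjusted p = 1.9e-04). Both genes passed the filter through A2B5+ arrays only, so the separation of their groups supports nothing. Pde7a, also cAMP-specific, had A2B5+ ratios of 1 to 1.64 and O4+ ratios of 0.68, 0.299, 0.908 and 0.99 (-1.03 ± 0.33, adjusted p = 0.029). The low O4+ replicate 2 carried much of that size, and without it the difference was -0.66 (adjusted p = 0.033), while leaving out A2B5+ replicate 3, 4 or 5 or O4+ replicate 1 ended the call (0.052 to 0.062). Its array B probe set differed by 0.13 ± 0.09 and was not called, and the mean over both array types was -0.45 (adjusted p = 0.081).

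Pde6h, the inhibitory subunit of the cone photoreceptor enzyme, had ratios of 5.39, 2.92, 1.11, 0.605 and 6.07 in A2B5+ and 0.57, 0.598, 0.558 and 0.58 in O4+ replicates. The O4+ values varied as low probe sets did (SD 0.059 after subtracting their pattern), so the size of the 3.99-fold lower value (standard error 0.62 on the log2 scale, adjusted p = 0.025) is uncertain. Pde6h was highest in A2B5+ replicates 1, 2 and 5, where the mean of 8 ependymal and choroid plexus markers was also highest (1.38, 0.92 and 1.23, against 0.03 and -0.18 in replicates 3 and 4). Of these 8 markers 4 were lower in O4+ cells and 1, Aqp1, was higher (0.37). Not all of them shared the A2B5+ pattern. The SD of A2B5+ log2 ratios was 1.03 to 1.30 for Foxj1, Tekt1, Tmem212, Dynlrb2 and Rsph1, and 0.13 to 0.22 for Aqp1, Folr1 and Ttr. The part of ependymal or choroid plexus cells was not tested. Of the photoreceptor markers 2 were tested, and Crx, Nrl and Rcvrn were among those below the filter. Without A2B5+ replicate 1 or 2 or O4+ replicate 1, 3 or 4 the Pde6h call was lost (adjusted p = 0.053 to 0.056), as it was with array weights (0.068).

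The uncalled phosphodiesterase genes were Pde4d (0.42 ± 0.20), Pde4c (0.16 ± 0.10), Pde10a (0.20 ± 0.10), Pde6g (0.12 ± 0.24), Pde6b (0.13 ± 0.11), Pde8a (-0.35 ± 0.27), Pde8b (-0.19 ± 0.16) and Pde9a (-0.28 ± 0.20). The cAMP-specific family 4 thus had 1 called member of 3 tested. Below the filter lay 9 genes: the calmodulin-regulated Pde1a, Pde1b and Pde1c, then Pde3a, Pde4a, Pde5a, Pde6a and Pde7b, and the mitochondrial RNA enzyme Pde12.

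Of 6 tested PKA subunits, 3 were higher and 1 lower, beside 28.8% and 17.8% of all genes. With arrays centred 1 was higher and 1 lower, beside 18.7% and 20.4%. Prkar2b, the regulatory subunit RII-beta known from neurons and fat, had ratios of 1.25, 1, 1.53, 1.25 and 1.07 in A2B5+ and 0.41, 0.363, 0.438 and 0.41 in O4+ replicates. The O4+ values were tightly grouped below all A2B5+ values (-1.58 ± 0.14, 2.99-fold, adjusted p = 2.7e-05). Prkar2b passed the filter through A2B5+ arrays only, so this separation supports nothing. Prkar1b, the type I regulatory subunit of neurons, had 0.96, 0.612, 1, 0.877 and 0.506 and then 1.12, 2.09, 2.86 and 1.37 (1.19 ± 0.30, 2.28-fold, adjusted p = 0.011; 0.059 with arrays centred on low probe sets). The 2 brain-enriched regulatory subunits thus changed in opposite directions.

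Prkar1a, the widespread type I subunit, had geometric mean ratios of 1.04, 0.886, 0.897, 0.934 and 0.977 in A2B5+ and 1.53, 0.959, 1.39 and 1.61 in O4+ replicates (0.51 ± 0.16, adjusted p = 0.026). The call of Prkar1a ended with arrays centred (adjusted p = 0.14) and without A2B5+ replicate 2 or 3 or O4+ replicate 1, 3 or 4 (0.054 to 0.073). Prkaca, the main catalytic subunit, had ratios of 0.705, 0.895, 0.831, 0.726 and 1 in A2B5+ and 1.13, 1.08, 1.98 and 1.14 in O4+ replicates (0.65 ± 0.20, adjusted p = 0.024). Its call ended with arrays centred (adjusted p = 0.083) and without A2B5+ replicate 1 or 4 (0.053 and 0.051). The catalytic subunit Prkacb (0.07 ± 0.11) and the regulatory Prkar2a (0.21 ± 0.14) were not called, though 1 Prkacb probe set on array B was lower (-0.74 ± 0.23, adjusted p = 0.048).

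Probe sets of a gene did not always move alike. The 3 tested probe sets of Rgs3 differed by 1.28 ± 0.17 and -0.61 ± 0.19, both called, and by -0.16 ± 0.22, so its mean of 0.17 joins opposite changes. Those of Prkar1a differed by 1.18 ± 0.13, 0.54 ± 0.12 and -0.19 ± 0.28, the last without a call. The Gnb2 probe sets differed by 0.70 ± 0.15, called, and by 0.23 ± 0.23, not called. For Pde4dip the values were 2.96 ± 0.47 and 0.77 ± 0.23, both called. Each of the 3 Gnb1 probe sets missed the threshold (adjusted p = 0.149 to 0.845), although their mean was called. Pde4b (2.52 and 1.86), Gng12 (3.18 and 1.88), Gng2 (-1.41 and -0.82) and Rgs2 (-1.58 and -0.88) had 2 called probe sets of the same direction.

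**Figure D4:**
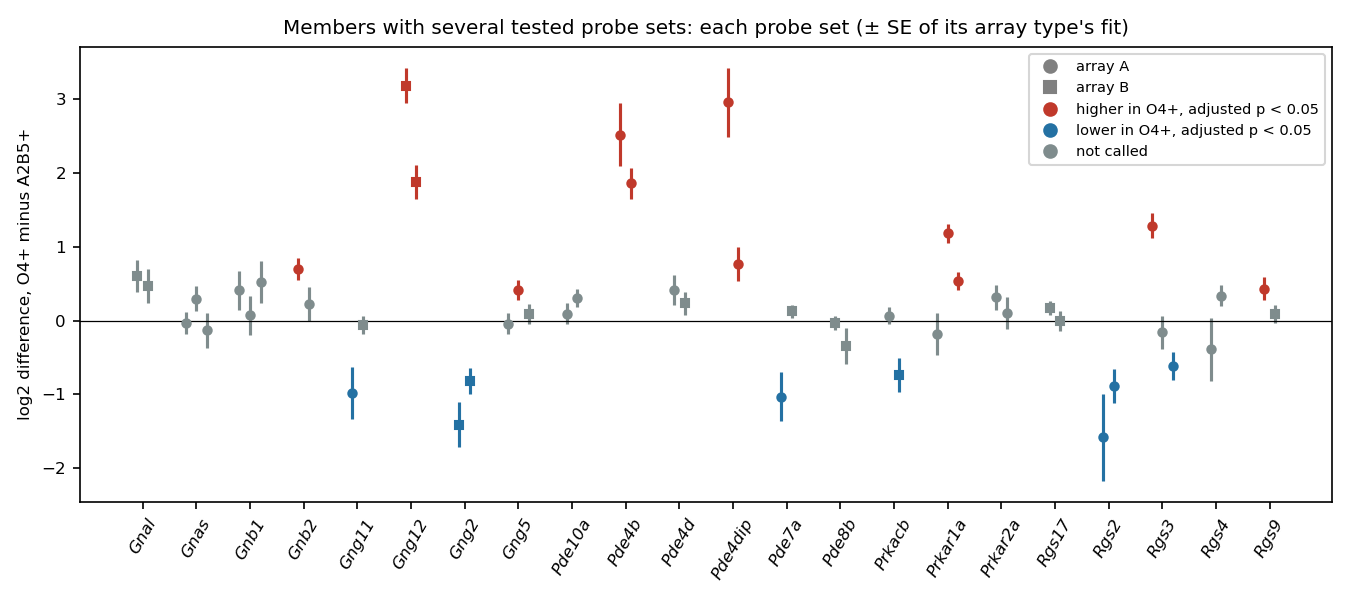
Log2 difference and standard error (O4+ minus A2B5+) of each tested probe set for members with several, circles on array A and squares on array B, coloured by call in the fit of its array type. Rgs3 has probe sets called in both directions, and Gng12, Pde4b and Gng2 each have 2 called the same way.

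Other genes of the pathway were taken from 7 lists of 116 genes. Of the 92 tested, 23 were higher (25%) and 15 lower (16.3%), near the shares over all genes of 28.8% and 17.8%. With arrays centred, 16 were higher and 20 lower, beside 18.7% and 20.4% of all genes. The balance of directions thus moved with the scaling, as it did over all genes. PKA anchoring and inhibitor proteins had 2 higher and 5 lower of 18 (with arrays centred both higher calls ended and 6 were lower), led by the anchoring proteins Akap11 (0.92 ± 0.26, adjusted p = 0.050 with arrays centred) and Akap14 (-1.83 ± 0.42). Among cAMP response factors 4 of 15 were higher and 1 lower (3 and 1 centred), with Creb3l2, a membrane-bound factor of the secretory pathway, at 0.95 ± 0.21 and the immediate early receptor Nr4a1 at -0.86 ± 0.23. The exchange factors of Rap and their targets had 3 higher and 1 lower of 7, also with centring, and the close relatives Rap1a (2.61 ± 0.18) and Rap1b (-0.52 ± 0.17) changed in opposite directions.

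Beside the list counts that follow stand 28.8% higher and 17.8% lower over all genes, and 18.7% and 20.4% with arrays centred. Receptor kinases and arrestins, which silence activated receptors, had 2 higher and 1 lower of 7 (1 and 1 centred). Among them the visual arrestin Sag differed by 0.98 ± 0.14 and the widespread arrestin Arrb2 by -1.39 ± 0.18. The list of phospholipase C beta and its targets had 5 higher and 4 lower of 14 (5 and 5 centred). Its largest rise, Prkcz (4.28 ± 0.22), is an atypical protein kinase C that does not need the lipid product of phospholipase C, and its largest fall was the IP3 receptor Itpr1 (-1.44 ± 0.21). Genes of cGMP synthesis and its kinases had 3 higher and 2 lower of 10 (1 and 2 centred), with the guanylyl cyclase Gucy2e at 0.51 ± 0.15 and the natriuretic peptide receptor Npr2 at -1.06 ± 0.30. Other G protein regulators had 4 higher and 1 lower of 21 (3 and 4 centred), the sorting nexin Snx13, which holds an RGS domain, at 1.23 ± 0.24 and the phosducin-like Pdcl at -0.88 ± 0.29.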

How the data were processed

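RNA of A2B5+ and O4+ cells was labelled with biotin, per the labels, and hybridised to 2 array types. The deposited values are linear ratios per probe set. The authors' normalization is known only in part: the submitters' processing notes name GCRMA, with no version, and the step from it to ratios is not described there. Over the 9 arrays, 2928 of the 15923 probe sets of array A and 4283 of the 15333 of array B had a median ratio below 1, and the others a median of 1.

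Columns were assigned to replicates through the sample titles. Probe sets were named from the platform annotation, which was matched to the RefSeq gene table of GRCr8 by gene identifier (0 symbols changed), and 57 control probe sets per type were left out. Log2 ratios of tested probe sets were averaged per gene, with array A used before array B. limma 3.58.1 in R 4.3.3 (lmFit, eBayes, two-sided, Benjamini-Hochberg over 11982 genes) compared the populations, and single probe sets were fitted per array type. The fit was tested on simulated data. Arrays carry no depth, and their number limits the precision.

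Alternatives were another scaling, filter, pseudocount (0.25), probe set choice, use of both array types, array weights, a replicate block and each replicate left out. The members, lists and the naming rule (the 3 largest called rises and falls per role with array values, the other tested members with their difference, and the largest called rise and fall of each pathway list) were chosen with earlier results of these data known. Array values of Gng7, Pde7a, Gnao1, Gnai2, Rgs8 and Adcy8 are given beyond that rule, chosen after their values were seen.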

Additional observations from a re-analysis of the deposited data

Results flagged for a closer look

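For each tested member, the highest and lowest replicate of each population was compared with its neighbour by Dixon's criterion. It marked 13 of 142 groups (9.15%), where its nominal rate is about 1 in 20. No share marked over all genes is set beside this, so no excess is read from it. O4+ replicate 2, the array with the highest control signal on array A, was marked for 4 genes: its log2 ratios were lowest for Gnao1 (-1.71, next 0.64), Gnaz (-0.62, next 0) and Rgs16 (0.029, next 0.86), and highest for Rgs9 (0.62, next 0.15). A2B5+ replicate 5 was lowest for Gnb1 (-0.58) and highest for Gng13 (0.54) and Pde6b (0.16). O4+ replicate 3 was highest for Prkaca (0.99, next 0.19) and lowest for Pde8a (-1.10, next 0). O4+ replicate 4 was lowest for Rgs6 (-0.97) and highest for Pde4d (0.48), for which A2B5+ replicate 1 was also lowest (-0.91). O4+ replicate 1 was lowest for Gnb5 (0.36, next 0.82).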

How the results depend on the processing

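Of the 36 called members, 19 (11 higher and 8 lower) kept their direction and call under all 20 alternatives: Gng8, Gng12, Gng3, Pde4b, Gnai1, Pde4dip, Adcy5, Pde6d, Rgs16, Gnb4, Gnb5, Pde2a, Pde3b, Rgs7, Rgs18, Prkar2b, Adcy4, Gng2 and Adcy2. All 8 lower ones had passed the filter through A2B5+ arrays only, so their stability supports nothing. For the 11 higher ones the 4 O4+ arrays alone met the filter, so their stability is no support either. No called member turned its direction under these alternatives. Members called higher numbered 20, but 13 with arrays centred on their medians (18.7% of all genes), 11 with arrays centred on low probe sets (13% of all genes) and 31 with no filter (35.6% of all genes), where the 13 members below the filter entered too. Members called lower numbered 16, and 8 without A2B5+ replicates 2 and 5 (14.8% of all genes). For the other pathway genes, 23 higher became 37 with no filter, 13 with arrays centred on low probe sets and 15 without A2B5+ replicates 2 and 5. These stand beside 35.6%, 13% and 22.3% of all genes. Of the same pathway genes, 15 lower became 26 with arrays centred on low probe sets, beside 25.4% of all genes. The cause of these moves was not tested. Leaving out 1 replicate gave 14 to 19 members higher and 11 to 17 lower. It gave 17 to 25 other pathway genes higher and 9 to 15 lower, with 9 reached without A2B5+ replicate 2. Over all genes these fits called 22.7% to 30.2% higher and 14.8% to 17.5% lower. Both populations share replicate numbers 1 to 4 in their titles. Deviations from the group means correlated at -0.0042 to 0.33 between same-numbered arrays on array A and at -0.19 to 0.25 on array B, and the best match was the own number for 3 of 4 on A but 1 of 4 on B, so the numbers were not taken as pairs. The replicate block gave 19 members higher and 18 lower, beside 26.9% and 18.2% of all genes. Centring on low probe sets, separate fits per array type and the removal of A2B5+ replicates 2 and 5 were chosen after seeing the data. Where a group's ratios move with the low probe sets, as for Gng8, Gng7 and Rgs9 in A2B5+ and Pde6h in O4+ cells, signal over background limits what the size of a difference can say.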
